A study of Mus musculus with 4 samples.

Results

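Bipolar cells of the mouse retina were compared with rods in a table of long-read isoform counts, gene by gene and isoform by isoform. Of 16702 genes in the table, 5494 had at least 100 counts in both the bipolar (BC) column and the Rod column, and these were the genes compared. They comprised 5342 Ensembl genes and 152 unnamed loci, and held 98.6% of the BC counts and 98.4% of the Rod counts. A further 686 genes reached 100 counts in BC alone, 1973 in Rod alone, and 8549 in neither column. Retinas were taken from male mice of the inbred strain C57BL6/J, wild-type in genotype, and their dissociated cells made 4 libraries. In 2 of them no enrichment was used, and 1 of these was from postnatal day 40, with no age given for the other. The other 2 were enriched: 1 had CD73 enrichment at postnatal week 8 and 1 had CD90.2 enrichment at postnatal month 4. Photoreceptors carry CD73 on their surface, and CD90.2 is found on ganglion cells and other neurons. The protocol in the labels describes magnetic separation that depletes CD73-positive cells and retains CD90.2-positive cells, while the series design names flow sorting. Neither column names a library, so each class is 1 pooled value that mixes the enrichments and ages. The BC column pools all bipolar types.

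Rods are the photoreceptors of dim light. Light closes their cation channels through a photopigment, the G protein transducin and a cyclic GMP phosphodiesterase, all held in the outer segment, a modified cilium. Bipolar cells are the interneurons that receive glutamate from rods and cones and pass it on to amacrine and ganglion cells. ON bipolar cells use the receptor mGluR6, whose G protein closes the channel TRPM1, and OFF bipolar cells use ionotropic receptors. Both classes release glutamate at ribbon synapses, and both derive from progenitors that express Otx2. Alternative splicing, the joining of different exons of 1 gene, is known to give photoreceptors forms of ciliary and synaptic genes that most other neurons lack.

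The BC column held 29010038 counts and the Rod column 55437340, which is 1.91 times as many. Levels are given as CPM, the counts of a gene per 1000000 counts of the column, and a difference as the log2 ratio of BC over Rod, so that a positive value is higher in BC. The 95% intervals are exact and cover counting error only. With 1 pooled value per class there is no replicate, no test was made, and a gene was called by size alone, at a 4-fold difference. A level in a pooled column cannot tell fewer cells of a type from less RNA per cell. The 6 rod markers, among them Gnat1 and Nrl, summed in BC to 1.74% of their level in Rod. The 6 bipolar markers, among them Pcp2 and Grm6, summed in Rod to 3.62% of their level in BC. That sum, 23972 CPM in BC and 868 CPM in Rod, was mostly Pcp2, whose levels are given below. Both columns thus showed the markers of their own class. Markers of other cells were unequal too. The Müller glia markers summed to 389.6 CPM in BC and 1292 CPM in Rod, none at 0. The microglia markers summed to 110.2 and 569 CPM, with none at 0, and the cone markers to 823 and 1914 CPM, none at 0. Ganglion cell markers summed to 30.9 CPM in BC, where Pou4f1 was at 0, and 116 CPM in Rod. Amacrine markers summed to 3.55 CPM in BC, where Tfap2a was at 0, and 11.1 CPM in Rod. The 4 horizontal cell markers in the table summed to 25.3 CPM in BC and 12.2 CPM in Rod, where Onecut2 was at 0. The part of these other cells in the results below was not tested.

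Most genes had similar levels in both classes. The median log2 ratio was -0.08, with quartiles of -0.77 and 0.59, and 3591 genes (65.4%) lay within 2-fold. At 4-fold, 373 genes (6.79%) were higher in BC and 301 genes (5.48%) were higher in Rod, together 674 of 5494 (12.3%). The genes higher in Rod held 27.02% of all Rod counts against 2.15% of BC counts. Those higher in BC held a smaller share of their own column, 15.5% of BC counts against 1.79% of Rod counts. At equal depth of the columns, 262 genes were higher in BC and 301 in Rod, so the order of the 2 numbers of genes depended on the depth. Of the genes higher in BC, 170 had their highest CPM of all 6 classes in BC, while 71 peaked in amacrine cells, 63 in ganglion cells and 51 in Müller glia. Of the genes higher in Rod, 233 of 301 peaked in Rod itself and 29 in Müller glia. Among the genes higher in Rod, 4 had a BC level at or under the share that the rod markers had there. Among those higher in BC, 31 had a Rod level at or under the share of the bipolar markers, which was set mostly by Pcp2. Of the 237 genes in the lists described next, 127 were compared and 52 were called, against 12.3% of all genes. The lists were written by hand with earlier results of these data known, so this excess follows at least in part from their choice.

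**Figure D1:**
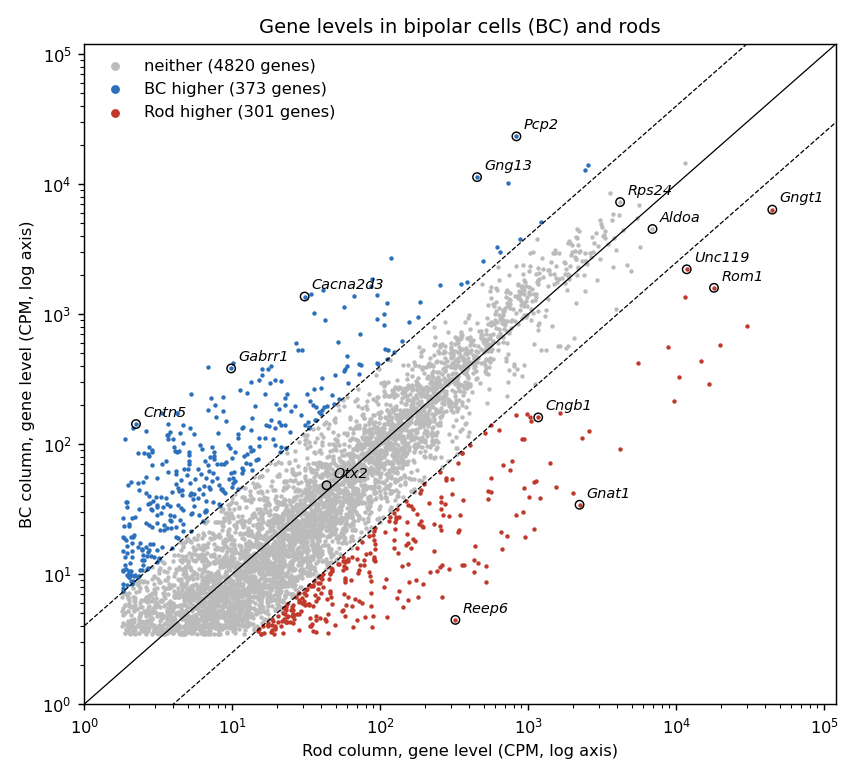
Level of each of the 5494 genes in the Rod column (x axis, CPM, log scale) and the BC column (y axis, CPM, log scale). The solid line marks equal levels and the dashed lines 4-fold differences. Blue points are the 373 genes higher in BC, red points the 301 higher in Rod and grey points the rest, and circles mark genes named in the text.

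All 7 compared genes of rod phototransduction were higher in Rod, with a median log2 ratio of -5.58 against -0.08 over all genes. Gnat1, the alpha subunit of rod transducin, had 34.2 CPM in BC and 2221 CPM in Rod (log2 ratio -6.02, 95% interval -6.11 to -5.93), a 64.96-fold difference and the second largest of all genes. Its partner Gnb1, the beta subunit, stood at 41.99 CPM in BC and 2015 CPM in Rod (log2 ratio -5.58, 95% interval -5.67 to -5.50). The catalytic phosphodiesterase subunit Pde6b had 8.72 CPM in BC and 520.2 CPM in Rod, and the inhibitory subunit Pde6g 815 CPM in BC and 29998 CPM in Rod. These 4 genes lay between 36.8-fold and 64.96-fold. A pair of genes of the same cascade differed far less. Gngt1, the gamma subunit of rod transducin, had 6378 CPM in BC and 44574 CPM in Rod (log2 ratio -2.81, 95% interval -2.81 to -2.80), so its BC level was 14.3% of its Rod level, against 1.54% for Gnat1. Cngb1, a subunit of the cyclic nucleotide-gated channel, had 161 CPM in BC and 1168 CPM in Rod, or 13.8%. In the amacrine column the same 2 genes stood at 0.554% and 0.855% of their Rod level and Gnat1 at 0.876%. These genes thus stood well apart from Gnat1 in BC and less so in the amacrine column. In Müller glia they stood at 11.6% and 7.86% against 0.984% for Gnat1, so the gap was not particular to BC. In cones they stood at 48.98% and 4.93% against 4.08%. The 3 listed genes left out missed 100 counts in BC. Cnga1, the channel's other subunit, had 85 counts in BC and 8301 in Rod, Pde6a had 77 and 6990, and the exchanger gene Slc24a1 had 2 and 886.

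The 7 compared genes that shut off the light response were also all higher in Rod, at a median log2 ratio of -5.07. Sag, the arrestin that caps the active photopigment, had 216 CPM in BC and 9645 CPM in Rod (log2 ratio -5.48, 95% interval -5.52 to -5.44). Rcvrn, the calcium sensor recoverin, had 438 CPM in BC and 14696 CPM in Rod. The cyclase activators Guca1a and Guca1b had log2 ratios of -5.002 and -5.52, and Pdc, which binds the transducin beta-gamma pair, -5.10. Gnb5, which pairs with RGS9 to speed transducin shut-off, had 12.9 CPM in BC and 428 CPM in Rod. These 6 genes lay close together, from -5.52 to -5.002. Unc119, a carrier of the lipid tail of transducin alpha, stood apart from them at 2216 CPM in BC and 11774 CPM in Rod (log2 ratio -2.41, 95% interval -2.42 to -2.40). Its BC level was 18.8% of its Rod level. When the rod marker share of 1.74% was subtracted from BC, Sag moved to a log2 ratio of -7.61, Gnb1 to -8.04 and Guca1b to -7.81, and the list's median to -6.30. The direction held, while the size for genes this low in BC depended on that share.

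Outer segment and ciliary genes were higher in Rod in 6 of 7 cases, with a median of -3.94. The rim protein genes Prph2 and Rom1 had 559 CPM in BC and 8731 CPM in Rod and 1596 CPM in BC and 17995 CPM in Rod, respectively. Tulp1, needed for transport to the outer segment, had a log2 ratio of -4.95, the axonemal gene Rp1 -4.43, the cilium gene Rpgrip1 -3.94 and Fam161a -3.60. Relative to Rod, the BC levels of Rom1 (8.87%) and Prph2 (6.40%) again exceeded that of Gnat1. The exception was Pde6d, a carrier of prenylated proteins that acts in many cells, at 403 CPM in BC and 796 CPM in Rod (log2 ratio -0.98). Of the 6 photoreceptor transcription factors, 3 were higher in Rod and 3 were within 4-fold. Nrl and Nr2e3, which set rod fate, had log2 ratios of -5.61 and -5.62, and Crx, which acts in both photoreceptors and bipolar cells, had 24.5 CPM in BC and 182 CPM in Rod (log2 ratio -2.90, 95% interval -3.01 to -2.79). Otx2 had 48.3 CPM in BC and 43.4 CPM in Rod and Neurod1 292 CPM in BC and 404 CPM in Rod, both within 2-fold, and Prdm1, which holds back bipolar fate in young photoreceptors, had 4.31 CPM in BC and 2.18 CPM in Rod on 125 and 121 counts. The list's median was -1.68, or -0.16 over the 4 genes left with rod RNA subtracted.

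Of the 7 compared genes of the ON bipolar cascade, 6 were higher in BC and the median log2 ratio was 4.51. Pcp2, a modulator of the G protein Go, had 23352 CPM in BC and 832 CPM in Rod (log2 ratio 4.81, 95% interval 4.80 to 4.82). The G protein subunits Gnb3 and Gng13 had 2717 CPM in BC and 119 CPM in Rod and 11346 CPM in BC and 451 CPM in Rod, respectively. Rgs11, which speeds the shut-off of Go, had 123 CPM in BC and 3.77 CPM in Rod (log2 ratio 5.03, 95% interval 4.83 to 5.24). Cabp5, a calcium-binding protein, had a log2 ratio of 4.27. Prkca, the protein kinase C that marks rod bipolar cells, had the smallest of the 6, 2.23, from 31.2 CPM in BC and 6.67 CPM in Rod. Gnb3 was higher still in cones, at 4654 CPM. The seventh gene, Gnb5, serves both RGS9 in rods and RGS11 in ON bipolar cells, and its higher level in Rod is given above. The receptor and the channel themselves fell short of 100 counts in Rod: Grm6 had 569 counts in BC and 34 in Rod, and Trpm1 118 and 2. Lrit3, which organises the mGluR6 complex but is made in photoreceptors, was low in BC, with 6 counts against 223 in Rod.

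Among bipolar transcription factors 4 of 5 compared genes were higher in BC. Neurod4 had 122 CPM in BC and 4.44 CPM in Rod (log2 ratio 4.78, 95% interval 4.59 to 4.97), Lhx4 68.6 CPM in BC and 2.87 CPM in Rod, Vsx1 19.3 CPM in BC and 2.13 CPM in Rod and Six3 45.3 CPM in BC and 8.39 CPM in Rod. Otx2, shared with the photoreceptor list, was the fifth. Six3 was higher in amacrine cells (164 CPM) than in BC. Most other factors of the list were too low in Rod to be compared. Isl1, of ON bipolar cells, had 306 counts in BC and 8 in Rod, and Lhx3 520 and 30. Of the OFF bipolar genes, Cabp2 could be compared and was higher in BC, at 341 CPM in BC and 15.9 CPM in Rod, and the kainate receptor gene Grik1 had 400 and 40 counts. The 3 compared receptors for inhibitory transmitters, through which amacrine cells act on bipolar terminals, were all higher in BC. Gabrr1 and Gabrr2, subunits of the GABA-C receptor, had 382 CPM in BC and 9.83 CPM in Rod and 380.2 CPM in BC and 15.8 CPM in Rod. Both were under 1 CPM in amacrine cells.

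Of 11 compared genes of the release machinery, 2 were called, against 12.3% of all genes, and the median log2 ratio was -0.10, near that of all genes. The vesicle gene Vamp2 had 513 CPM in BC and 503 CPM in Rod, Snap25 595 CPM in BC and 505 CPM in Rod and the vesicular glutamate transporter Slc17a7 12.7 CPM in BC and 12.3 CPM in Rod. Stx3, the syntaxin of ribbon synapses, had a log2 ratio of -0.55, Rims2 -0.40 and Ctbp2, whose locus encodes the ribbon protein, 0.63. The complexins, which clamp vesicles before fusion, formed the exception and went in opposite directions. Cplx4 was 6.32-fold higher in Rod, with 162 CPM in BC and 1027 CPM in Rod, and Cplx3 was 11.2-fold higher in BC, with 31.7 CPM in BC and 2.83 CPM in Rod. Of 5 calcium channel subunits and partners, 1 was higher in each class and 3 were within 4-fold. Cacna2d3 had 1368 CPM in BC and 30.8 CPM in Rod (log2 ratio 5.47, 95% interval 5.40 to 5.54), while Cabp4, which tunes the presynaptic calcium channel of photoreceptors, had 19.8 CPM in BC and 716 CPM in Rod (log2 ratio -5.18, 95% interval -5.30 to -5.06). Cacna2d4, the auxiliary subunit known from photoreceptor terminals, had 37.3 CPM in BC and 13.3 CPM in Rod, with a log2 ratio of 1.49. Of the potassium channels, Kcnj14 was higher in Rod (6.72 CPM in BC and 261 CPM in Rod) and Kcnv2 was just past 4-fold in BC (92.97 CPM in BC and 23.1 CPM in Rod). Kcnma1, the large calcium-activated channel, had 1947 counts in BC and 80 in Rod.

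Of 20 glycolysis and lactate genes, 2 were called, close to the share of all genes, and the median log2 ratio was 0.03. Their directions differed along the pathway. Tpi1 (1.71), Pgam1 (0.996) and Pgk1 (0.64) had log2 ratios above 0, and Ldha (-1.83), Eno1 (-1.20), Pkm (-0.68) and Aldoa (-0.61) below. The lactate dehydrogenase Ldha had 1094 CPM in BC and 3893 CPM in Rod. Pfkm, the muscle form of phosphofructokinase, was higher in BC at 28.6 CPM in BC and 3.12 CPM in Rod, while Pfkl and Pfkp had log2 ratios of 0.03 and 0.02. The monocarboxylate transporter Slc16a1 was higher in Rod at 4.48 CPM in BC and 42.5 CPM in Rod, and higher still in Müller glia, at 49.9 CPM. Of 23 ribosomal protein genes, 22 were within 4-fold, with a median of 0.49 and 19 above 0. The exception, Rps14, rested on 62.8 CPM in BC and 13.5 CPM in Rod. Some usually abundant genes had few counts in every class, such as Gapdh at 70.04 and 73.5 CPM and Rpl4 at 2.10 and 1.32 CPM, so these lists are incomplete as deposited. Both lists also have near-identical processed copies in the genome, to which reads may be assigned. Of 6 immediate early and stress genes, which respond to dissociation as well as activity, 4 were within 4-fold, and Fos was higher in BC (271 CPM in BC and 39.5 CPM in Rod) and Hspa1a in Rod (29.02 CPM in BC and 177 CPM in Rod). Fos and Hspa1a were highest in Müller glia, at 837 and 289.9 CPM.

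The splicing regulators measured in both classes were all within 2-fold or higher in Rod, apart from Srrm4. Celf1 (12.3 CPM in BC and 57.6 CPM in Rod), Pcbp2 (13.6 CPM in BC and 64.8 CPM in Rod) and Khdrbs1 (8.17 CPM in BC and 33.98 CPM in Rod) were called higher in Rod, 3 of 9. Srrm3 and Srrm4, which promote microexons, had log2 ratios of -0.39 and 1.10, and Msi2 -0.01. Msi1, the Musashi protein that drives photoreceptor exons, was at 43 counts in BC and 1567 in Rod, or 1.48 CPM in BC and 28.3 CPM in Rod. Of 12 compared genes known to carry photoreceptor exons, 11 were within 4-fold in level, close to the share of all genes, and Cltb, a clathrin light chain, was higher in BC at 1403 CPM in BC and 94.7 CPM in Rod. The pump subunit Atp1b2 had a log2 ratio of -1.34.

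**Figure D2:**
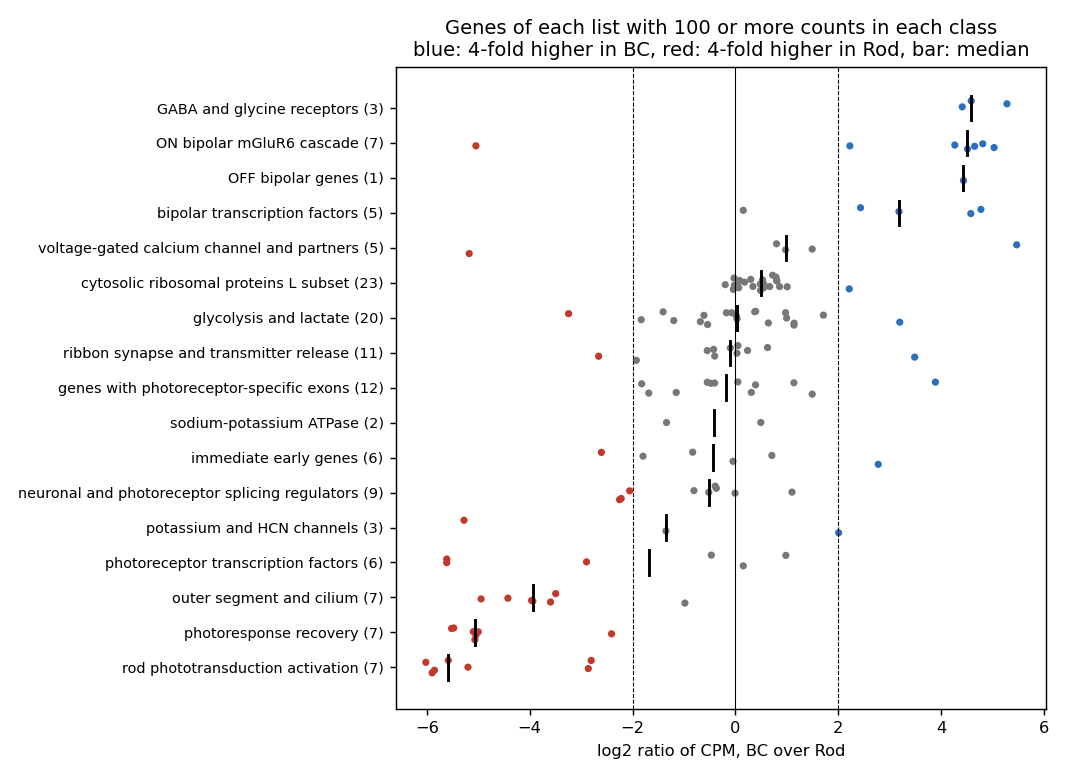
Log2 ratio of CPM, BC over Rod (x axis), for the genes of each list with at least 100 counts in each class, whose number stands in parentheses. Points are genes, black bars are list medians and dashed lines mark 4-fold. Phototransduction lists lie between -6.02 and -2.41, the bipolar and receptor lists mostly above 2, and the release, glycolysis and ribosomal lists around 0.

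Among the 12 largest differences towards BC, Cntn5, a contactin of the neuronal surface, was the largest of all, with 143 CPM in BC and 2.24 CPM in Rod (log2 ratio 5.996, 95% interval 5.74 to 6.27). Cnmd, which encodes chondromodulin, followed at 62.6-fold and Tubb2b, a beta-tubulin of young neurons, at 57.5-fold. Slc4a10 (a bicarbonate transporter), Fstl5 and Ndnf (secreted proteins), Cacna2d3, Qpct (glutaminyl cyclase), Car8 and Car10 (carbonic anhydrase-related proteins), Frmd3 and Gpc6 (a glypican) completed the first 12, with log2 ratios from 5.28 to 5.69. Tubb2b was also above 100 CPM in Müller glia, ganglion cells and cones, at 274, 161 and 152 CPM, whereas Cntn5 was at 7.75 CPM or less in every other class. Towards Rod the largest was Reep6, a membrane-shaping protein whose loss causes rod degeneration, with 4.45 CPM in BC and 322 CPM in Rod (log2 ratio -6.18, 95% interval -6.44 to -5.93). The first 12 also held Gnat1, Pde6b, Nr2e3, Nrl, Gnb1, Guca1b, Sag, Fscn2 (an actin bundler of the outer segment), the kinase gene Sgk1 and the adaptor gene Sh2d1a, down to -5.39. Samd11, at 93 counts in BC and 9424 in Rod, was left out by the count minimum. At the limits of the rule, Kcnv2 and Immp2l lay just inside 4-fold higher in BC at log2 ratios of 2.01 and 2.01, and Rnd2 and Abcg2 just outside at 1.9999 and 1.99. On the Rod side Uqcc3 and Fgfr1op2 lay inside at -2.0007 and -2.0022, and Lrrc57 outside at -1.99. Of the 18 genes with exactly 100 counts in the lower column, Mier2 (-2.47) and Olfml3 (-2.19) were among those compared, and Sybu (4.60) and Mkrn2 (-1.98) were among 25 genes with 99 counts that were not.

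Isoform use was compared in the 3761 genes that had 2 or more isoforms with counts in these columns. An isoform's share is its part of the gene's counts in a column, so it does not depend on the gene's level. In 3308 genes (87.96%) the same isoform was the most abundant in both classes. At least 1 isoform differed by 25 percentage points or more in 430 genes (11.4%). In 78 genes (2.07%) the most abundant isoform was another one and 1 of the pair differed by at least 50 points, which is called a switch here. Called genes were commoner where counts were few: 18.8% of genes with 100 to 200 counts in the lower column against 6.83% of the 1304 genes with at least 1000 in each, where 89 were called and 16 switched. Isoform calls at 25 points were about as common among genes that differed in level. Of the genes higher in BC 13.2% were called for an isoform, of those higher in Rod 12.8%, and of the rest 11.2%. Switches were commoner among genes that differed in level. They were found in 12 of 228 genes higher in BC, 9 of 196 higher in Rod and 57 of 3337 of the rest. Just inside the 25 points lay Acsf3 (25.009) and Ppox (-25.011), and just outside Slc35a2 (-24.957), as BC share minus Rod share in points.

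In each called gene a pair of isoforms was compared, the most abundant one of each class. Where both classes shared it, the pair was that isoform and the other one with the largest share difference. The direction of the gene's largest difference then set which was assigned to BC and which to Rod. The pairs differed by several kinds of structure. Of 420 pairs with transcript models, 167 differed by a skipped exon, 122 by the first exon, 71 by a 3′ end inside the other isoform, 54 by the last exon and 38 by a 5′ end inside the other, and 1 pair could differ in several ways. Alternative 5′ and 3′ splice sites were found in 23 and 19 pairs and a retained intron in 12. The isoform assigned to Rod was the longer one in 249 pairs and that assigned to BC in 171. Among switched genes with models the Rod isoform was longer in 53 of 75, with median lengths of 2001 nt in Rod and 1601 nt in BC. The deposited models cover only isoforms with a Rod count, and a nanopore read that stops early gives a shorter isoform. The part of read truncation in these lengths was not tested.

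Bin1, a membrane-curving protein of endocytosis, had the largest share difference: its isoform with an added exon of 129 nt held 94.8% of the counts in BC (93.9 to 95.5, 3165 counts) and 3.81% in Rod (3.42 to 4.22, 9093 counts). In amacrine and ganglion cells that isoform held 96.9% and 95.7%, in cones 35.3% and in Müller glia 7.86%. For Bin1, BC was thus near the other inner neurons and Rod at the low end. Prkcz, an atypical protein kinase C with a known internal promoter, showed a switch of first exon. Its form starting inside the gene held 87.4% of the counts in BC (84.2 to 90.1, 515 counts) and 4.91% in Rod (4.28 to 5.62, 4171 counts), and 97.8% in amacrine cells against 3.22% in cones. With rod RNA subtracted, the largest share difference of Prkcz moved from -82.5 to -89.0 points (BC minus Rod) and that of Faim, below, from 59.9 to 71.5. Other switches of first exon were in Zfp119b, Pnrc1, Coro1b, Uckl1 and Faim, an inhibitor of apoptosis, whose BC form held 68.7% of the counts in BC (67.4 to 69.97, 5057 counts) and 8.84% in Rod (8.66 to 9.03, 90347 counts). Hk1, the hexokinase that starts glycolysis, had an 8-exon isoform that ended inside the 18-exon isoform of Rod and began at another first exon. The 8-exon form held 71.6% of the counts in BC (69.4 to 73.7, 1740 counts) and 15.4% in Rod (14.4 to 16.5, 4838 counts). Clk1, a kinase that phosphorylates splicing factors, had a spliced 13-exon form at 80.6% of the counts in BC (78.7 to 82.3, 1858 counts) and 22.7% in Rod (21.6 to 23.9, 5313 counts), while the commonest Rod form kept an intron. Oaz1, the antizyme that limits polyamine synthesis, combined another first exon with an added exon. Its BC form held 85.3% of the counts in BC (84.5 to 85.997, 9072 counts) and 23.1% in Rod (22.1 to 24.1, 7239 counts). That form held 84.9% in cones and 2.72% in amacrine cells, where the BC form of Faim held 94.3%. Amacrine cells thus did not side with BC in every switch. Rxrg, a retinoid X receptor known from cones, kept an intron in 1 of its forms, and its BC form held 74.3% of the counts in BC (71.7 to 76.8, 1166 counts) and 12.4% in Rod (7.64 to 18.7, 153 counts), at a gene level of 40.2 CPM in BC and 2.76 CPM in Rod. Spp1, which encodes the secreted protein osteopontin, had a 5-exon form at 61.9% in BC and 2.08% in Rod, where a 7-exon form held 97.8%. In Spp1 and Rxrg 1 form also began inside the other, and the part of early read stops in their shares was not tested. In Def8, Wdr13 and Ptms 1 form began or ended inside the other, so a read that stops early could give 1 from the other. The forms of Arid4a had different first exons, and 1 ended inside the other. For Def8 a 4-exon form was dominant in BC and a 12-exon form in Rod, and for Wdr13 a 10-exon form in BC and a 4-exon form in Rod. In Ank3 the isoform most abundant in each class had 0 counts in the other: 36.4% of 209 BC counts were of an isoform with 0 of 267 counts in Rod, with a 95% interval of 0 to 1.37%.

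**Figure D3:**
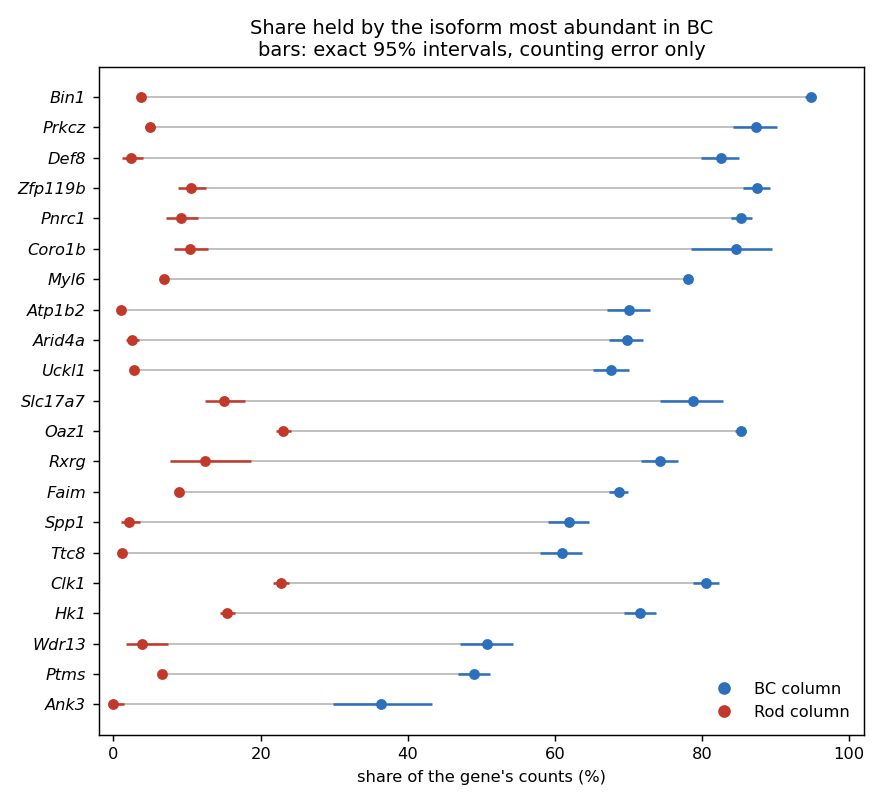
Share of a gene's counts (x axis, %) held by the isoform that is most abundant in BC, in the BC column (blue) and the Rod column (red), for 21 genes with a switch. Bars are exact 95% intervals for counting error. The genes were chosen for a switch, so the gap between the columns follows from that choice. Oaz1 has the highest share in Rod.

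Isoform differences in 5 genes came from short exons present in most rod transcripts and fewer bipolar ones, in genes of the ion pump, the cilium, the synapse, the cytoskeleton and the ribosome. Exon inclusion here is the share of counts spanning an exon that contain it. Atp1b2, the beta-2 subunit of the sodium-potassium pump, carried 2 neighbouring microexons of 27 and 21 nt. The first was included at 29.9% in BC (95% interval 27.03 to 32.9, 970 counts) and 98.98% in Rod (98.6 to 99.2, 4692 counts). The second was included at 10.1% in BC (95% interval 8.28 to 12.2, 970 counts) and 97.6% in Rod (97.1 to 97.99, 4692 counts). Nearly every Rod transcript thus held both, and most BC transcripts held neither. Ttc8, also called BBS8, a subunit of the BBSome that carries cargo into cilia, has a known photoreceptor exon of 30 nt. It was included at 39.1% in BC (95% interval 36.3 to 41.98, 1166 counts) and 98.9% in Rod (98.6 to 99.1, 7167 counts). Slc17a7, or VGLUT1, included an exon of 75 nt at 12.4% in BC (95% interval 9.04 to 16.4, 331 counts) and 79.4% in Rod (75.6 to 82.9, 495 counts), at a gene level that differed by a log2 ratio of 0.05. The exons are shown with the exon in capitals between 20 coding bases on each side in lower case, since they are what set the rod and bipolar forms apart. Sequences are of GENCODE M21 transcripts on mouse build GRCm38, and all 4 exons are coding and a multiple of 3 in length. The Ttc8 exon lies at chr12:98937120-98937149, plus strand, the Atp1b2 pair at chr11:69602304-69602330, minus strand, and chr11:69601924-69601944, minus strand, and the Slc17a7 exon at chr7:45169511-45169585, plus strand.
Atp1b2, 27 nt: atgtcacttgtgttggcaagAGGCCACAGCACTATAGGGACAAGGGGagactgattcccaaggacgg
Atp1b2, 21 nt: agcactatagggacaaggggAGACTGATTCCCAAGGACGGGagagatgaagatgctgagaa
Ttc8, 30 nt: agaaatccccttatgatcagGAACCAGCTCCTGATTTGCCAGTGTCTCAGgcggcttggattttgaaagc
Slc17a7, 75 nt: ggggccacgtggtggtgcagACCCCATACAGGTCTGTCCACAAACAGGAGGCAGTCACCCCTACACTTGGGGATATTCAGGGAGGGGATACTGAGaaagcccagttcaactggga

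The other 2 of these exons hold the end of the coding region. Myl6, the essential light chain of non-muscle myosin, included an exon of 45 nt at 20.6% in BC (95% interval 20.2 to 20.98, 46840 counts) and 92.98% in Rod (92.7 to 93.3, 31075 counts). Rps24, a protein of the small ribosomal subunit, included an exon of 18 nt at 42.4% in BC (95% interval 42.2 to 42.6, 211501 counts) and 90.8% in Rod (90.7 to 90.9, 231425 counts), on a gene level of 7291 CPM in BC and 4175 CPM in Rod. The Myl6 exon is at chr10:128491720-128491764, minus strand, and the Rps24 exon at chr14:24494052-24494069, plus strand. Of these exons 26 and 3 nt are coding in the annotation. Cones, the other photoreceptors, were near Rod for all 6 exons, at 99.1% and 93.98% for Atp1b2, 97.4% for Ttc8, 68.8% for Slc17a7, 94.9% for Myl6 and 91.1% for Rps24. Amacrine cells were below BC for both Atp1b2 exons (3.61% and 0.490%), Ttc8 (8.83%) and Rps24 (7.65%). Myl6 did not follow that order, with 33.5% in amacrine cells and 74.9% in Müller glia. For Atp1b2, Ttc8 and Rps24, BC thus lay between the photoreceptors and the amacrine cells, although ganglion cells were at 80.1% for Rps24. With the rod RNA share of 1.74% subtracted from BC, the largest share differences of Atp1b2, Ttc8, Slc17a7, Myl6 and Rps24 moved by less than 5 points.

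Across all genes, 4532 alternative exons in 2176 genes had at least 100 spanning counts in each column. Inclusion differed by 25 points or more for 251 of them (5.54%), 115 with more inclusion in BC and 136 with more in Rod, in 193 genes. The split turned at 500 spanning counts, with 46 more in BC and 28 more in Rod, with Ensembl isoforms only, with 51 and 33, and at 10 points, with 568 and 468. At 50 points it was 10 more in BC and 29 more in Rod. Microexons, here of at most 27 nt, were called in 19 of 120 cases (15.8%) and longer exons in 232 of 4412 (5.26%). Of the 19 microexons, 13 were included more in Rod and 6 more in BC, and 89.5% had a length that keeps the reading frame, against 63.3% of all 120. No test of these shares was made, since exons of 1 gene share its reads. The exons named from here on were chosen after their values were seen. Towards Rod, Sgce (27 nt, 60.6% in BC and 93.4% in Rod) and Tpd52 (27 nt, 57.6% and 83.5%) had over 500 spanning counts in each column. Towards BC, the exon of 12 nt of Vps29, a subunit of the retromer that recycles membrane proteins, was included at 88.96% in BC (95% interval 88.4 to 89.5, 12661 counts) and 59.7% in Rod (59.02 to 60.4, 18452 counts). Trappc13, of a vesicle tethering complex, included an exon of 18 nt at 53.99% in BC (95% interval 51.7 to 56.3, 1880 counts) and 18.2% in Rod (16.7 to 19.8, 2447 counts). Mars, a methionyl-tRNA synthetase, included one of 24 nt at 49.5% in BC and 10.8% in Rod. These 3 had cone values of 81.1%, 20.1% and 15.8%, of which the second and the third were near Rod.

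**Figure D4:**
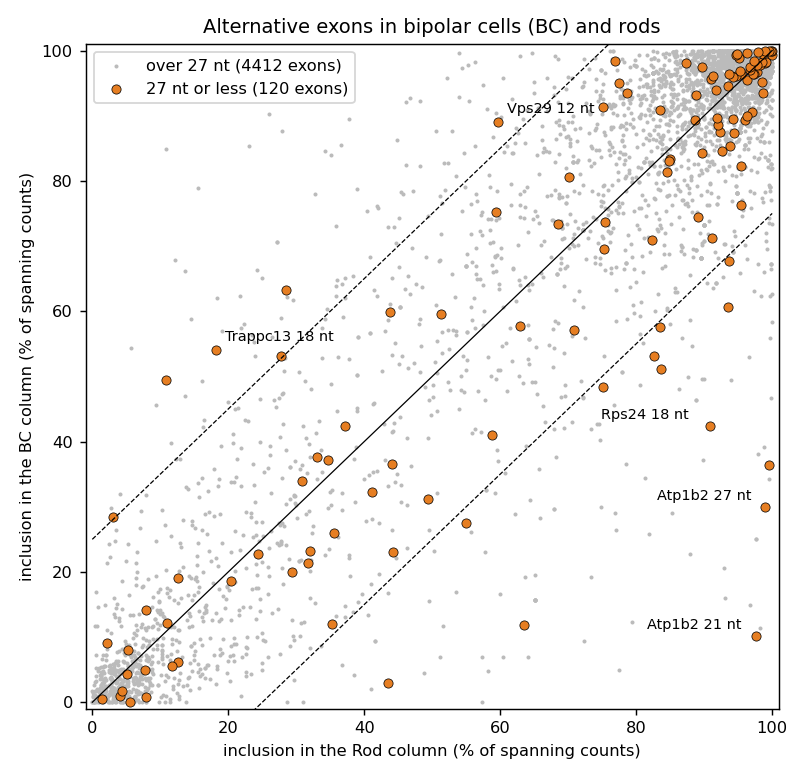
Inclusion of each of the 4532 alternative exons in the Rod column (x axis, % of spanning counts) and the BC column (y axis). Orange points are the 120 microexons of at most 27 nt and grey points the longer exons, the solid line marks equal inclusion and the dashed lines differences of 25 points. Most exons lie near the corners of full or no inclusion in both classes, and the 2 Atp1b2 microexons lie at the lower right.

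Exons of the splicing kinases Clk1 and Clk4, 1 of a pair in the splicing factor U2af1 and an exon of the fission gene Mff were included more in BC. Clk4 and Clk1, related kinases of splicing factors, each have an exon of 91 nt whose skipping shifts the reading frame. In Clk4 it was included at 78.9% in BC (95% interval 76.9 to 80.8, 1747 counts) and 15.6% in Rod (14.1 to 17.1, 2391 counts). In Clk1 it was included at 92.7% in BC (95% interval 91.3 to 93.9, 1615 counts) and 46.8% in Rod (44.8 to 48.7, 2583 counts). Both genes thus had more of the full form in BC. These 2 exons are identical at 85 of 91 bases, so a read that covers little else could be placed on either gene. U2af1, the splicing factor that reads the 3′ splice site, has a pair of alternative exons of 67 nt each. The downstream one was included at 58.7% in BC (95% interval 57.9 to 59.4, 15281 counts) and 87.9% in Rod (87.5 to 88.2, 34554 counts). The upstream one was included at 37.4% in BC (95% interval 36.6 to 38.2, 15281 counts) and 12.3% in Rod (11.98 to 12.7, 34554 counts). Rod used mostly the downstream exon and BC both. The pair is identical at 44 of 67 bases. Mff, the receptor for the fission enzyme on mitochondria, included an exon of 60 nt at 61.7% in BC (95% interval 60.7 to 62.8, 8601 counts) and 29.6% in Rod (28.8 to 30.4, 12805 counts). The sequences below show the Clk and U2af1 exons with the bases that differ within each pair in capitals, and the exons of Vps29, Trappc13 and Mff in capitals with flanking coding bases in lower case. Clk1 lies at chr1:58420121-58420211, minus strand, Clk4 at chr11:51273078-51273168, plus strand, the downstream and upstream U2af1 exons at chr17:31651646-31651712, minus strand, and chr17:31652502-31652568, minus strand, Vps29 at chr5:122356794-122356805, plus strand, Trappc13 at chr13:104152165-104152182, minus strand, and Mff at chr1:82747083-82747142, plus strand.
Clk1, 91 nt: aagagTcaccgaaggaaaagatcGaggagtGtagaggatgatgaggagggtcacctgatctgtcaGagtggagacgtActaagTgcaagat
Clk4, 91 nt: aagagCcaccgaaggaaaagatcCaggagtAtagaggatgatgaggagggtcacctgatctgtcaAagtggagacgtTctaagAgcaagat
U2af1, downstream exon: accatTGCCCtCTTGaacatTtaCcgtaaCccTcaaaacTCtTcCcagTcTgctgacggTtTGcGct
U2af1, upstream exon: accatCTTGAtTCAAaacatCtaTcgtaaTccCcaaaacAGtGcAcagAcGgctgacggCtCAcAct
Vps29, 12 nt: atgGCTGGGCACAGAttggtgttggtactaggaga
Trappc13, 18 nt: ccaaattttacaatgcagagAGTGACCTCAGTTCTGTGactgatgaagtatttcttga
Mff, 60 nt: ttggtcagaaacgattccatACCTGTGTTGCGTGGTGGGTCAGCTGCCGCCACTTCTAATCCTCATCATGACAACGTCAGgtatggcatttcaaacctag

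Seen across all 6 classes, these exons did not follow 1 order. The Clk4 exon was lowest in Rod, at 15.6%, with 48.3% in amacrine cells and 60.2% in cones. The Mff exon grouped Rod with cones (28.9%) and Müller glia (31.5%), and BC with amacrine cells (60.03%) and ganglion cells (89.5%). The Vps29 microexon instead was commoner in BC, cones and Rod than in amacrine and ganglion cells (7.35% and 4.67%). The Trappc13 microexon was higher in BC than in any other class with at least 20 spanning counts, the next being cones at 20.1%. The light chain gene Klc1 of the kinesin motor had an exon of 51 nt at 55.3% in BC, 45.9% in amacrine cells, 23.7% in Rod and 16.9% in cones. Sumo3 went the other way: an exon of 108 nt was in 48.9% of Rod counts, 18.8% of cone counts and 4.55% of BC counts. Further isoform differences among the listed genes were in Prdm1, Eno2, Celf2 and Sv2b, with largest share differences of 44.8, 39.9, -29.4 and -25.5 points (BC minus Rod) and no switch.

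**Figure D5:**
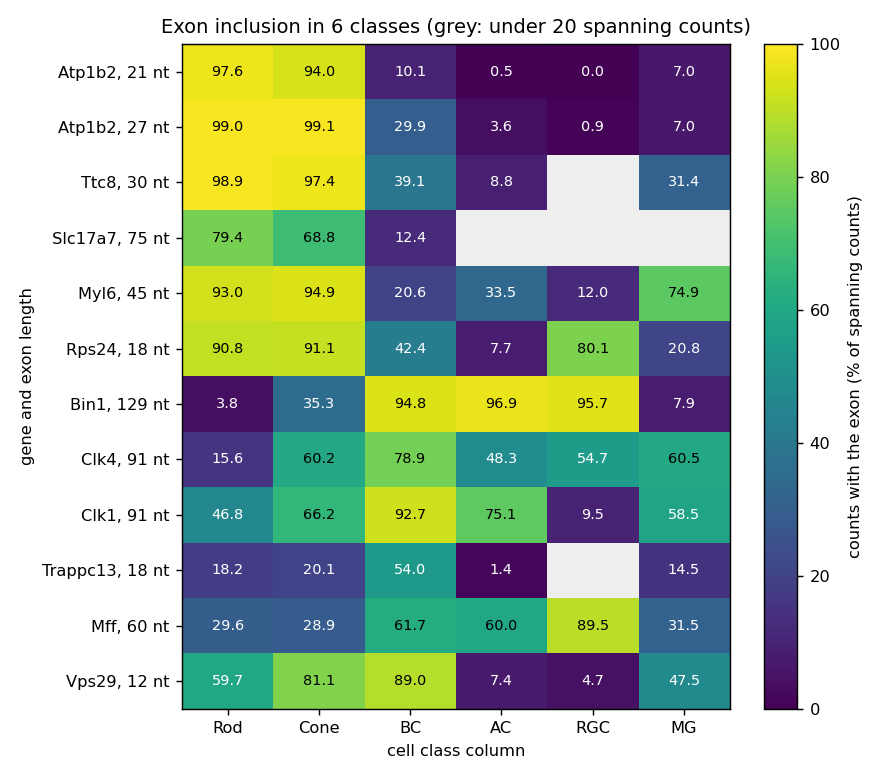
Inclusion of 12 exons (rows, with length in nt) in the 6 class columns, as % of the counts spanning the exon, printed in each cell and coloured from 0 to 100%. Grey cells had under 20 spanning counts. Rod and cones lie within 4 points of each other for Atp1b2, Ttc8, Myl6, Rps24, Trappc13 and Mff, and far apart for Bin1 and Clk4.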

How the data were processed

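Single-cell cDNA of 4 mouse retina libraries was read on nanopores, and the authors deposited counts per isoform summed by cell class, with transcript models on mm10, per the submitters' processing notes. The aligner, and whether counts are reads or molecules, are not given in the sources used here. The deposited counts were summed by the gene at the end of each identifier, with symbols and exon sequences from GENCODE M21 (GRCm38, the assembly also called mm10). CPM used the totals of the columns, and 3 counts equal 0.103 CPM in BC and 0.0541 CPM in Rod. Ratios have exact conditional binomial 95% intervals and shares exact Clopper-Pearson intervals (scipy 1.17.1), for counting error only. Named were the 12 genes with the largest log2 ratio each way, listed genes, the 12 with the largest share difference at 100 and at 1000 counts, and genes at the limits. Members and lists were chosen with earlier results of these data known, and exon inclusion and its alternatives were added after seeing the data. Alternatives used TMM and median-of-ratios scaling factors (numpy 2.4.6), equal depth, other minimums and thresholds, Ensembl isoforms or genes only, merged or spliced isoforms, and subtraction of rod RNA. Values of some single genes are not reported here. The scripts were tested on simulated data.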

Additional observations from a re-analysis of the deposited data

How the results depend on the processing

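No paired analysis was possible because each class is 1 sum with no library or replicate named, and for the same reason no library could be left out. Of 5494 genes compared, 674 were called (373 higher in BC, 301 higher in Rod). They became 1541 of 8643 (848 and 693) at 20 counts and 251 of 3010 (146 and 105) at 500 counts. Of the same 5494 genes, 1903 (884 and 1019) were called at 2-fold and 298 (179 and 119) at 8-fold, numbers set by the threshold itself. Calls were 675 of 5494 with TMM scaling and 661 of 5494 (394 and 267) with median-of-ratios scaling, which shifts all log2 ratios by 0.08. At equal depth they were 563 of 5161 (262 and 301), and with rod RNA subtracted 675 of 5432. Genes with an isoform share difference (430 of 3761) became 1305 of 6065 at 20 counts and 142 of 1916 at 500 counts. With Ensembl isoforms only they were 175 of 1958. Of the 3761 genes, 1566 were called at 10 points and 81 at 50 points. Dominant isoform switches (78 of 3761) became 268 of 6065 at 20 counts and 30 of 1916 at 500 counts. They were 38 of 1958 with Ensembl isoforms only and 252 of 3761 at 25 points. Called exons (251 of 4532) became 74 of 1846 at 500 spanning counts and 84 of 1004 with Ensembl isoforms only. Called microexons (19 of 120) became 8 of 62 and 9 of 42. With rod RNA subtracted, the median of phototransduction genes was -4.84 over the 4 left, and that of potassium channels changed sign, from -1.35 over 3 genes to 0.32 over the 2 left. Of 68 alternative values of single genes 13 moved, as did 5 of 51 list medians and 2 of 54 isoform differences, and no other of these changed direction.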
